A study of Mus musculus with 2 samples.

Results

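The genes that make, break down and answer to cyclic AMP were followed in a comparison of DNA methylation between Ngn3 null and Ngn3 heterozygous cells of the mouse pancreas. They were chosen by their symbols, as all annotated genes named Pde, Adcy, Akap, Creb, Crtc or Rapgef with a number, Prkar, Prkac or Crem, which gave 76 of 49997 genes, 74 of them protein-coding. The measured outcome, which of these genes lay nearest to a region of changed methylation, was already known when the family was chosen. Their counts are therefore a description, with no test.

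Cyclic AMP is made from ATP by adenylyl cyclases, which G proteins switch on and off, and is broken down by phosphodiesterases. It acts by releasing the catalytic subunits of protein kinase A from their regulatory subunits, and by activating EPAC exchange factors. Anchoring proteins hold the kinase at particular places in the cell, and in the nucleus it phosphorylates CREB factors, which work with CRTC coactivators. In the islet, incretin hormones raise cyclic AMP in the beta cell and so amplify the insulin secretion that glucose triggers.

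Cells carrying an eGFP reporter at the Ngn3 locus were sorted from pancreata at E14.5, where E counts days of embryonic development. Ngn3 (current symbol Neurog3) is the transcription factor that starts endocrine differentiation. The heterozygous cells, Ngn3eGFP/+, had 1 reporter allele and are called islet progenitors in the labels, and the null cells, Ngn3eGFP/eGFP, had the reporter on both alleles and are called endocrine progenitors. All came from a mixed background, mostly ICR with small parts of C57Bl/6 and 129svev. Both groups were untreated primary cells and carried the reporter, so no library without it was compared. Each genotype was 1 whole-genome bisulfite library of about 400000000 reads, with no replicate and so no estimate of error. Genotype cannot be told apart from any other difference between these libraries, including the stage and mix of the cells sorted. A change in every cell and a change in the share of cells that carry a mark cannot be told apart either.

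The table analysed names the genes nearest to regions with lower methylation in null cells (the lower list, 429 names) and with higher methylation in null cells (the higher list, 3230 names). It holds no methylation level, coverage, region position or number of regions, so a gene can only be given as present or absent. How far a region lay from the gene named for it, and whether it touched the promoter, the gene body or neither, was not recorded. The labelled cell type could not be checked, since nearness to a region says nothing of expression. Of the marker genes looked up, the higher list held Pax4 and Insm1 of 8 endocrine markers and Cela1 of 5 exocrine markers, and the lower list held Kdr of 3 endothelial and Lcp1 of 3 blood markers. None of the 4 mesenchyme markers was in either. For comparison, the higher list took in 12.1% of all protein-coding genes, while the lower list took in 1.51%. With 3 to 8 genes each, these marker sets are too small for their counts to be told apart from such shares. No pattern by cell type is therefore read from them.

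Of the 76 genes, 24 were named: 22 for higher methylation and 3 for lower, with Adcy2 in both. All 24 were protein-coding, and 52 genes were in neither list. The 22 made up 29.7% of the 74 protein-coding members, against 12.1% of all 21887 protein-coding genes in the higher list. For the lower list the shares were 4.05% of the members and 1.51% of all protein-coding genes. Either list took in 32.4% of the members and 13.1% of all. Members were also long genes, with a median length of 85.8 kb against 17.2 kb for all protein-coding genes, and in the table as a whole the share of genes named was larger for longer genes.

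**Figure D1:**
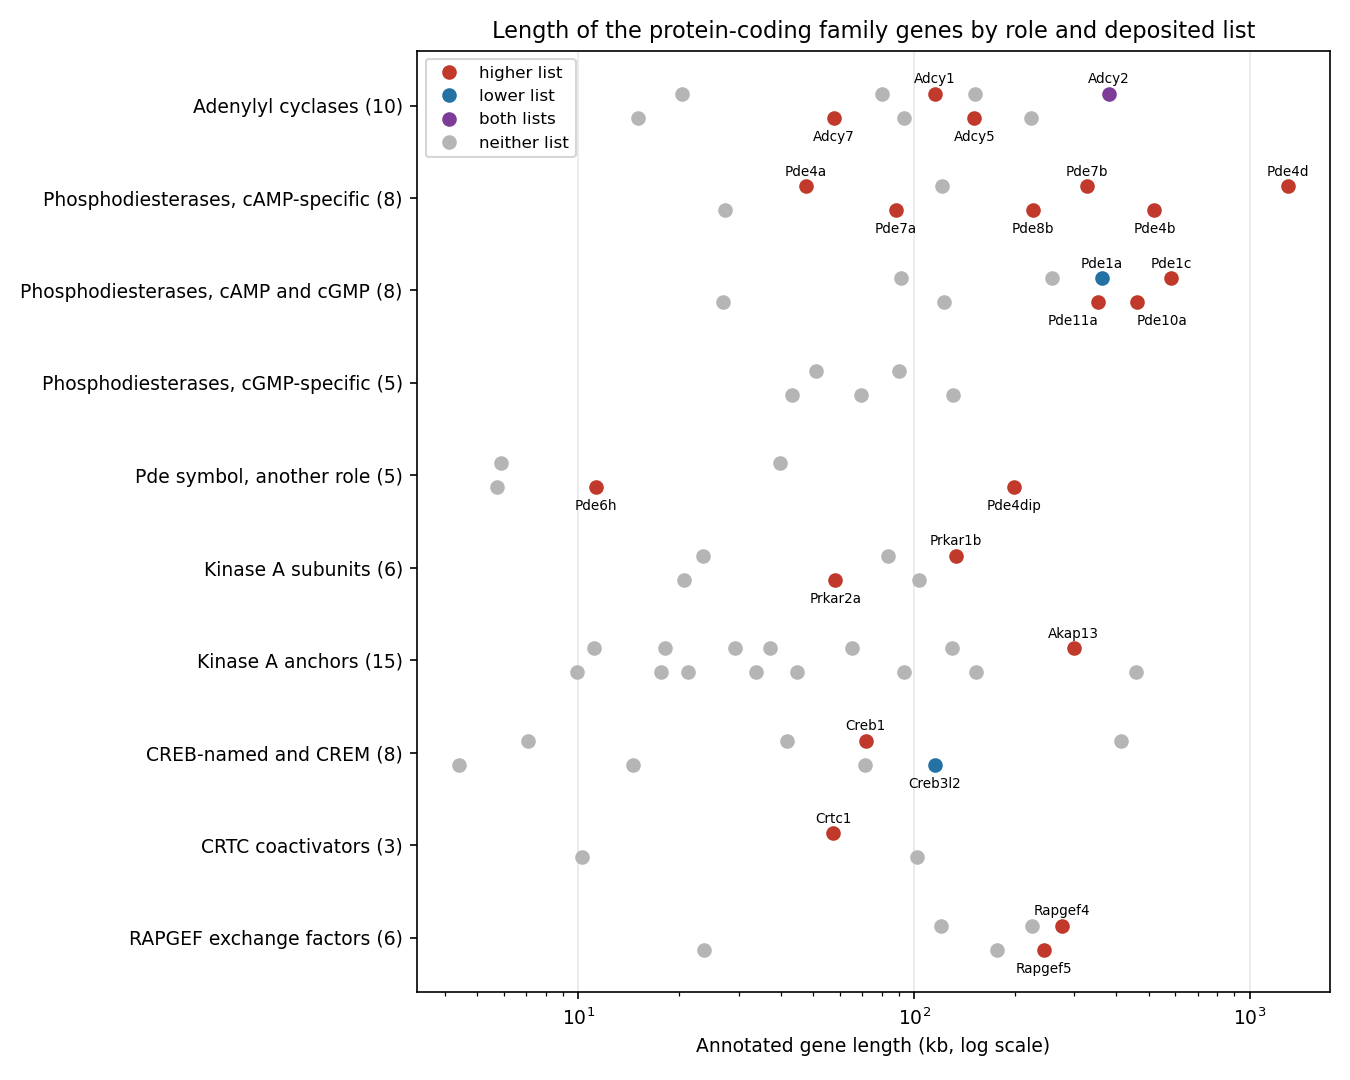
Length of each of the 74 protein-coding members, on a log scale in kb, by role (number of genes in parentheses). Each point is a gene and its colour gives the deposited list, with symbols printed for the 24 named genes. Named genes lie towards the right, from Pde6h at 11.3 kb to Pde4d at 1302 kb.

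Among the enzymes of synthesis, 4 of 10 adenylyl cyclase genes were named, beside 13.1% of all protein-coding genes in either list. Adcy2, a cyclase stimulated by G protein beta-gamma subunits, spans 380 kb (chromosome 13, 68620043 to 68999600 in GRCm38) and was the only member of the family in both lists. It thus lay nearest to at least 1 region of each direction. Its neighbours were split in the same way: 1700001L19Rik, 5.81 kb away, was in the lower list, and Tent4a, 498 kb away on the other side, was in the higher list. Adcy7 (chromosome 8, 88272190 to 88329965), a cyclase of the same subgroup, was in the higher list. The annotated span of Brd7, also in the higher list, overlaps it, so that a region there could be given to either name. Adcy4, the remaining cyclase of that subgroup and only 15 kb long, was in neither list.

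The calcium-regulated cyclases gave 2 further names in the higher list. Adcy1 (chromosome 11, 7063433 to 7178506) is stimulated by calcium and calmodulin. Adcy5 (chromosome 16, 35154494 to 35305743) is inhibited by calcium, and its human counterpart lies at a locus associated with type 2 diabetes. Their nearest relatives were absent from both lists: Adcy3 and the 223 kb Adcy8, which like Adcy1 respond to calcium, and Adcy6, which resembles Adcy5. Adcy9 and the soluble cyclase gene Adcy10 were in neither list.

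Among the enzymes of breakdown, 10 of 21 genes were named, beside 13.1% of all protein-coding genes in either list. The 21 are given here by the nucleotide they cleave. Of the 8 cyclic AMP-specific genes, 6 were in the higher list, and the lower list had none of them. Of the 8 genes whose enzymes cleave both cyclic AMP and cyclic GMP, the higher list had 3 and the lower list 1. None of the 5 genes specific for cyclic GMP was in either list, a count too small to be set apart from the 13.1% of all protein-coding genes in either list. These groups differed in length as well: their medians were 174 kb, 305 kb and 69.3 kb, and the longest cyclic GMP-specific gene, Pde5a, spans 130 kb. The part of gene length in this order was not tested.

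Within the cyclic AMP-specific group, Pde4 enzymes are the targets of the inhibitor rolipram, and each gene makes long and short forms from several starts. Pde4a (chromosome 9, 21165700 to 21213248), Pde4b (chromosome 4, 102087332 to 102607275) and Pde4d (chromosome 13, 108654177 to 109955969) were all in the higher list. They range from 47.5 kb for Pde4a, the shortest phosphodiesterase gene of this group to be named, to 1302 kb for Pde4d, the longest member of the whole family. Pde4c, at 27.4 kb the shortest of the paralogs, was not named, although Crtc1, a family member 284 kb away, was in the higher list. Pde7a (chromosome 3, 19223108 to 19311322) and Pde7b (chromosome 10, 20397052 to 20725078) encode cyclic AMP-specific enzymes that rolipram does not block, and both were in the higher list. Pde8b (chromosome 13, 95024105 to 95250401), a high-affinity enzyme, was there with its neighbours on both sides, Wdr41 at 0.788 kb and Zbed3 at 73.2 kb. Its paralog Pde8a, of 121 kb, was not named.

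The start regions of these genes differ in how many CpG sites they offer to methylation. Sequences of 300 bases, from 250 before to 50 after an annotated start, were taken from RefSeq (GRCm38.p6). They are shown for Adcy2, the gene in both lists, and for the Pde4 genes of the higher list. Of the starts with such a sequence, the one with the highest CpG content was used for each gene. The sequences read 5′ to 3′ on the strand of the gene with each CpG in capitals, and are not regions in which methylation was measured. The windows are chr13:68999492-68999791, minus strand, for Adcy2; chr9:21165464-21165763, plus strand, for Pde4a; chr4:102421305-102421604, plus strand, for Pde4b; and chr13:108653927-108654226, plus strand, for Pde4d.
Adcy2: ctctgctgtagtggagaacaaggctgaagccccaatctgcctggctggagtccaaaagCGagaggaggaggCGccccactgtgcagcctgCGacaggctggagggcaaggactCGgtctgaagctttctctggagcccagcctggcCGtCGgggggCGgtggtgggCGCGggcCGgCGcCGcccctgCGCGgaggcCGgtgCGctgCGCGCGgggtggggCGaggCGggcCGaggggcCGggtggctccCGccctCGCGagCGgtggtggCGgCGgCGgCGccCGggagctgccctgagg
Pde4a: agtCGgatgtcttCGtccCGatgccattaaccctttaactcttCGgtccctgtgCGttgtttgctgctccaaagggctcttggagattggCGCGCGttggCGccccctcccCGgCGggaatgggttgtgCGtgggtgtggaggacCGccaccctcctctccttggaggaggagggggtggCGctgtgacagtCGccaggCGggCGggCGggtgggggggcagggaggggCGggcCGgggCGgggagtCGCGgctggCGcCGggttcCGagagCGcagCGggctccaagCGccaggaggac
Pde4b: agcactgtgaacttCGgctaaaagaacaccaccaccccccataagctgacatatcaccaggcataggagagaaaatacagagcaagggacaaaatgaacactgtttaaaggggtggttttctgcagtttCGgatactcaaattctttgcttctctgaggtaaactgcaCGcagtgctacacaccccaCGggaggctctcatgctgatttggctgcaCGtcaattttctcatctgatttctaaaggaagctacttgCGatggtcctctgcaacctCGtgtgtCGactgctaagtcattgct
Pde4d: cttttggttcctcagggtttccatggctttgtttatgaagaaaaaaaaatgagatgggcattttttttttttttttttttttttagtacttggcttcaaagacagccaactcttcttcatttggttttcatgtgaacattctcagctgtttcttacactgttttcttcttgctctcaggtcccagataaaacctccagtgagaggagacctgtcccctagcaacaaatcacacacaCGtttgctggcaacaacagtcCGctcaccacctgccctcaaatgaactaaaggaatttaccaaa

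The Adcy2 window holds 32 CpG sites and that of Pde4a 29, against 8 in Pde4b and 2 in Pde4d. As a ratio of observed CpG to the number expected from the C and G content, these are 0.79, 0.83, 0.48 and 0.17. Genes with dense and with sparse CpG in the windows shown were thus both nearest to regions of higher methylation. Pde4d had a single window and Pde4b had none at its annotated 5′ end. Starts of these genes without a window were not counted.

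Of the genes whose enzymes cleave both nucleotides, Pde1c (chromosome 6, 56069798 to 56652510), Pde10a (chromosome 17, 8525187 to 8986648) and Pde11a (chromosome 2, 75985808 to 76339145) were in the higher list. Pde1c belongs to the phosphodiesterases activated by calcium and calmodulin. Its paralog Pde1a (chromosome 2, 79834453 to 80196522) was the single phosphodiesterase of the lower list, so these relatives, of 583 kb and 362 kb, stood in opposite lists. Next to Pde1a, at 15.9 kb, Ppp1r1c was in the higher list, and next to Pde1c, at 37.1 kb, so was Ppp1r17. The remaining genes of the group, Pde1b, Pde2a, Pde3a and Pde3b, were in neither list. Pde3b encodes an enzyme that insulin signalling activates in fat cells, and Pde3a, at 258 kb, is as long as many genes that were named.

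The cyclic GMP-specific genes without an entry were Pde5a, Pde9a and the photoreceptor genes Pde6a, Pde6b and Pde6c. A further 5 genes share the Pde symbol but encode no cyclic nucleotide phosphodiesterase, and 2 of these were in the higher list. Pde6h (chromosome 6, 136952218 to 136963485) encodes the inhibitory subunit of the cone enzyme and, at 11.3 kb, was the shortest named member. Pde4dip (chromosome 3, 97689828 to 97888707) encodes myomegalin, a protein of the centrosome and Golgi that binds Pde4d. The others were Pde6d, Pde6g and Pde12.

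Of the 38 effector genes, 8 were named, beside 13.1% of all protein-coding genes in either list. The 38 include 6 CREB-named and 4 Rapgef genes that match by symbol but were classed as not answering to cyclic AMP. Of these, Creb3l2 and Rapgef5 were among the named. The 38 had a median length of 61.7 kb against 123 kb for the enzymes of breakdown and 104 kb for the cyclases. Of all protein-coding genes, the higher list held 13.5% of those of 20 to 100 kb and 29.9% of those of 100 to 200 kb. What remains of the difference between branches after length was not tested. Of the protein kinase A subunits, the regulatory genes Prkar1b (chromosome 5, 139017304 to 139150703) and Prkar2a (chromosome 9, 108692143 to 108750444) were in the higher list. The catalytic genes Prkaca and Prkacb and the other regulatory genes, Prkar1a and Prkar2b, were in neither. Each type of regulatory subunit, I and II, thus had 1 gene in the higher list and 1 in none.

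The start of Prkar2a is shown because it holds the shorter core of the cyclic AMP response element, the sequence bound by CREB (chr9:108691893-108692192, plus strand, RefSeq GRCm38.p6, CpG in capitals).
Prkar2a: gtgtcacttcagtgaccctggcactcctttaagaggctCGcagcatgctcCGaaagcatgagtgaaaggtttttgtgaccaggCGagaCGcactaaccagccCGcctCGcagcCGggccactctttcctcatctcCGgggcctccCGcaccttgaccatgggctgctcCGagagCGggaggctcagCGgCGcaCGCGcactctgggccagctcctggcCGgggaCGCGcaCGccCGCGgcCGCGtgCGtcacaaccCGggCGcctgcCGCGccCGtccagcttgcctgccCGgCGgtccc

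This window has 31 CpG sites, a ratio of 0.88, and the core, as CGTCA, begins 4 bases before the start. The element itself contains a CpG. The core was not particular to this gene: Prkar1b of the higher list and Prkaca, Prkacb and Prkar1a, in neither list, held it too. So did 26.2% of all protein-coding genes with a window.

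Anchoring proteins were the most numerous effectors, and 1 of their 15 genes was named. This was Akap13 (chromosome 7, 75455526 to 75754609), which anchors the kinase and is also an exchange factor for small GTPases. It was in the higher list, between Sv2b of the higher list at 146 kb and Klhl25 of the lower list at 93.7 kb. The count of 1 in 15 is too small to be set apart from the 13.1% of all protein-coding genes in either list. The group had a median length of 37.3 kb. Its longest gene, the 457 kb Akap6, encodes an anchor at the nuclear envelope of muscle cells and was in neither list, and the same held for Akap9 (152 kb) and Akap7 (130 kb). The remaining 11 genes were Akap1, Akap3, Akap4, Akap5, Akap8, Akap8l, Akap10, Akap11, Akap12, Akap14 and Akap17b.

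In the nucleus, Creb1 (chromosome 1, 64532794 to 64604548), the factor that protein kinase A phosphorylates, and Crtc1 (chromosome 8, 70382352 to 70439702), its coactivator, were in the higher list. Crem, a close relative of Creb1, and the coactivators Crtc2 and Crtc3 were not named. A further 6 genes carry the CREB name but belong to the Creb3 and Creb5 groups. One of them, Creb3l2 (chromosome 6, 37327255 to 37442276), which encodes a membrane-bound factor that is cleaved to act on genes of the secretory pathway, was in the lower list. Creb3, Creb3l1, Creb3l3, Creb3l4 and the 413 kb Creb5 were in neither.

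Of the exchange factors for Rap GTPases, Rapgef4 (chromosome 2, 71981215 to 72257474) was in the higher list. It encodes EPAC2, the cyclic AMP receptor that promotes insulin granule exocytosis in beta cells without protein kinase A. Rapgef3, which encodes EPAC1 and is 23.6 kb long, was not named. Rapgef5 (chromosome 12, 117516526 to 117759737), a related exchange factor, was in the higher list and so were its neighbours, Ptprn2 at 238 kb and Cdca7l at 83.7 kb. Rapgef1, Rapgef2 and Rapgef6 were not named. The 2 members that are not protein-coding, the pseudogene Prkaca-ps1 and the noncoding Rapgef3os2, were also in neither list.

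Gene length ran with these counts. The 24 named members had a median of 213 kb (11.3 to 1302 kb) and the 50 unnamed protein-coding members one of 48 kb (4.4 to 457 kb). Of members of at least 200 kb, 11 of 17 were in the higher list (64.7%), against 48.2% of all protein-coding genes of that length. From 100 to 200 kb the shares were 26.7% of members and 29.9% of all, from 20 to 100 kb 20% and 13.5%, and under 20 kb 8.33% and 6%. Set against all genes, the share of members was 2.46 times as high, but 1.26 times among genes of at least 100 kb and 1.87 times among shorter ones. All 3 members of the lower list were at least 100 kb long. What remains after length was not tested.

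**Figure D2:**
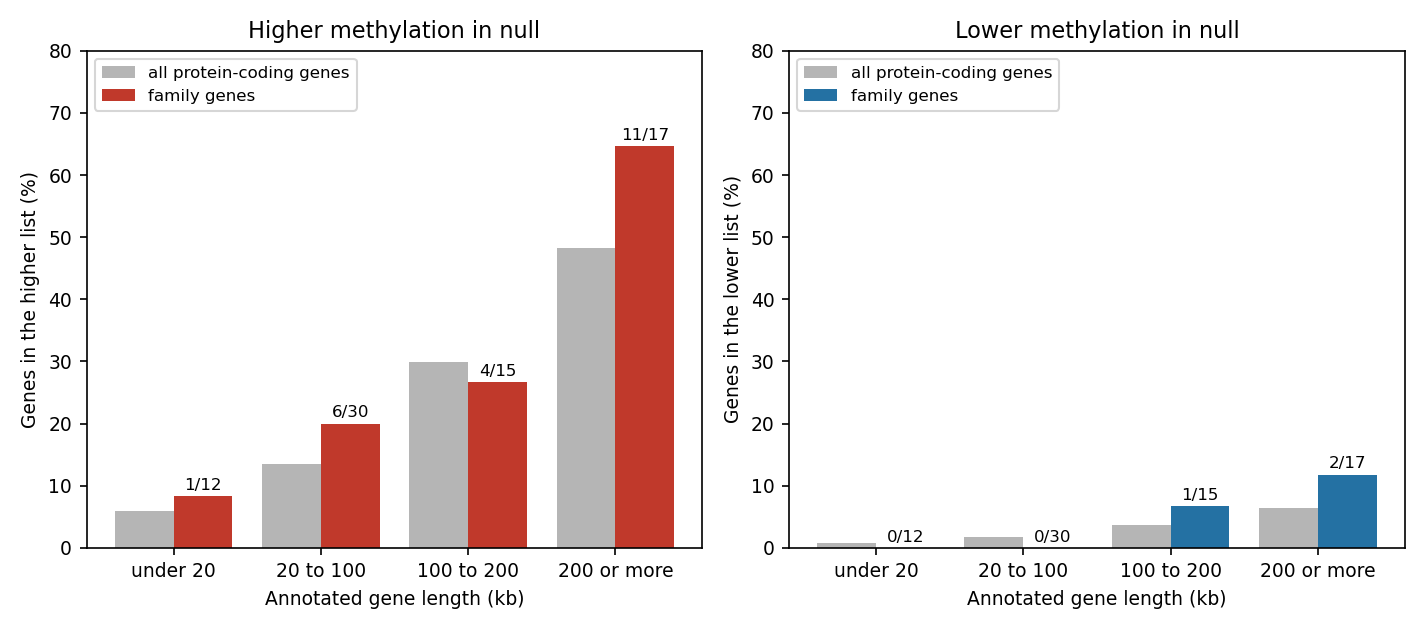
Percentage of genes in the higher list (left) and the lower list (right) by annotated gene length in kb, for all protein-coding genes (grey) and for the family (coloured, with the number named of the number of members above each bar). In the higher list both bars are tallest for the longest genes, at 48.2% of all genes and 64.7% of members of 200 kb or more, and from 100 to 200 kb the family bar is the lower one.

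Members of at least 200 kb that were in neither list were Akap6 (457 kb), Creb5 (413 kb), Pde3a (258 kb), Rapgef2 (224 kb) and Adcy8 (223 kb). Of the named genes, 7 were under 100 kb: Pde6h, Pde4a, Crtc1, Adcy7, Prkar2a, Creb1 and Pde7a. By branch, genes of at least 100 kb numbered 8 of the 10 named and 4 of the 11 unnamed enzymes of breakdown. They numbered 3 of 4 and 2 of 6 for the cyclases, and 5 of 8 and 9 of 30 for the effectors.

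The genes next to each member were looked up as well. Of the 48 flanking protein-coding genes of the 24 named members, 17 were in a list (35.4%), against 18 of the 100 flanking the unnamed members (18%) and 13.1% of all protein-coding genes. Territory here is a gene plus its side of the gap to each neighbouring protein-coding gene. Its median was 298 kb for named members and 91.4 kb for unnamed ones. Of all protein-coding genes, the higher list held 3.5% of those with a territory under 20 kb and 28.1% of those of 200 kb or more. The part of this in the neighbour counts was not tested. In all, 13 of the 24 named members had at least 1 named neighbour. Among them, Pde4d lay 98.2 kb from Rab3c, a gene of vesicle traffic, and Creb1 lay 1.92 kb from Mettl21a, both in the higher list. Without positions, separate regions and 1 stretch of changed methylation that reaches both genes cannot be told apart.

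CpG content at the starts was compared over all windows, of which 23 of the 24 named and 38 of the unnamed members had at least 1. Several starts had a window for 10 of the 23 and 15 of the 38 (43.5% and 39.5%), against 15.8% of all 17492 protein-coding genes with a window. The highest CpG ratio of each gene had a median of 0.734 in named members (quartiles 0.521 and 0.913) and 0.802 in unnamed members (0.526 and 0.934), and the distributions overlapped over most of their range. All genes of the higher list had the same median, 0.734, and all protein-coding genes 0.61. A start rich in CpG was taken as a ratio of at least 0.6 with at least 50% G and C. It was present in 15 of 23 named members (65.2%) and 25 of 38 unnamed members (65.8%). The shares were 48.3% of all genes and 62.9% of all protein-coding genes of the higher list. Any start could count, so a gene with several windows had more chances.

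By branch, all 8 named effectors had a CpG-rich start, as did 3 of the 4 named cyclases, Adcy7 being the exception. Of the named enzymes of breakdown, 3 of 9 had one: Pde4a, Pde8b and Pde10a. Pde1a, Pde1c, Pde4b, Pde4d, Pde7b and Pde11a had none among their windows. Some genes lay close to the cut of 0.6: Akap13 and Pde10a passed at 0.61, and Pde1c and Pde11a fell short at 0.56. For Pde1a, Pde1c, Pde4b and Pde7b, no window lay at the annotated 5′ end of the gene. The same held for Adcy7 and Pde6h and, among unnamed members, for Adcy10, Akap6, Creb3l4, Rapgef2 and Rapgef3. A CpG-rich start there would be missed, so these counts depend on which starts had a window. Among unnamed members the counts were 17 of 26 effectors, 3 of 4 cyclases and 4 of 6 enzymes of breakdown. Several genes had starts of both kinds. Prkar1b, with 5 annotated starts, ranged from 0.12 to 1.02, Rapgef5 had 1 start at 0.15 and 1 at 0.96, and Pde8b ranged from 0.40 to 1.01. Which of these starts lay nearer to a region of changed methylation is not recorded.

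**Figure D3:**
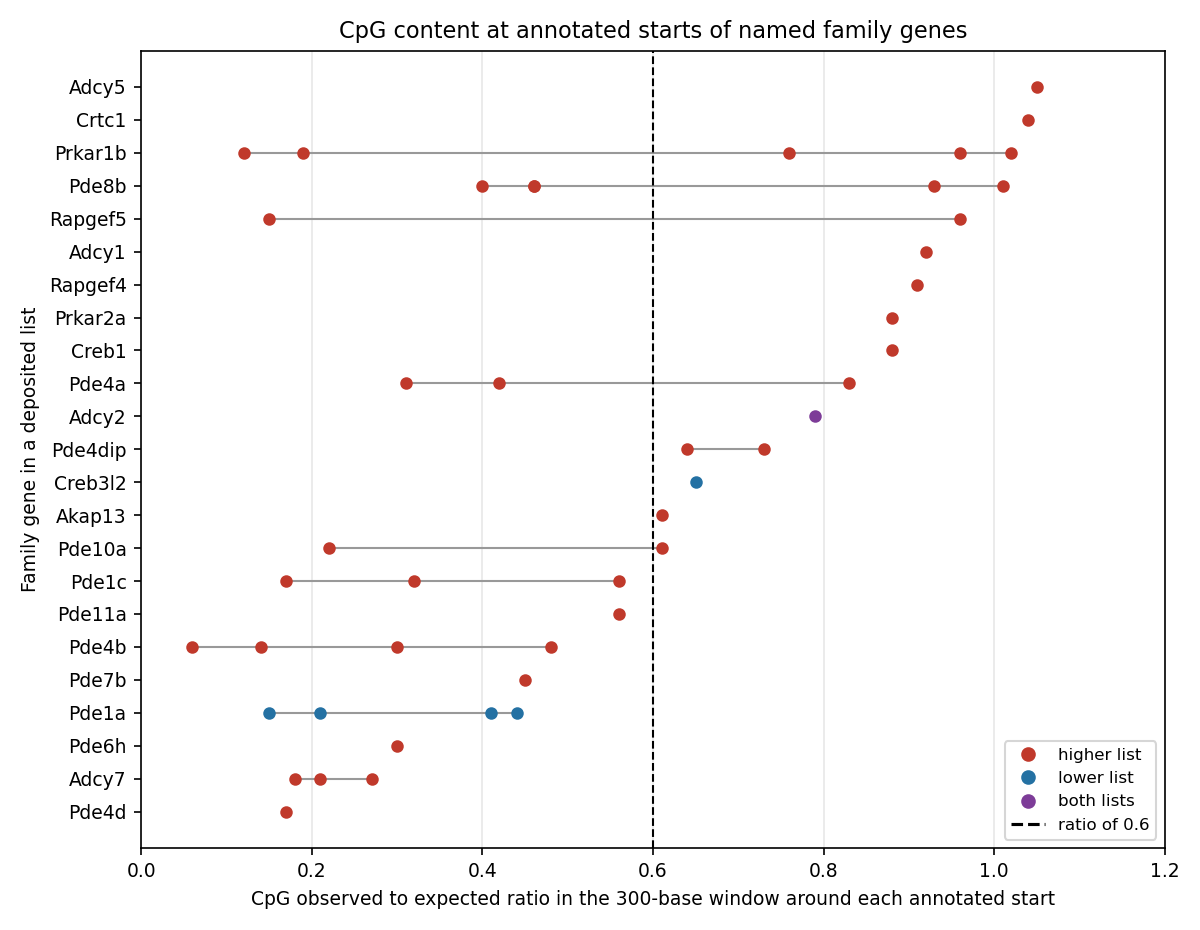
Ratio of observed to expected CpG in the 300-base window at each start that had one, for 23 named members. Each point is a start, coloured by list, lines join the starts of a gene, and the dashed line marks 0.6. Pde4d has a single window at 0.17, Adcy5 a single one at 1.05, and Prkar1b, Pde8b, Rapgef5, Pde4a and Pde10a have starts on both sides of the line.

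The cyclic AMP response element was looked for in the same windows on both strands, as the full element TGACGTCA, which reads alike on both, and as its shorter core TGACG, which the full element contains and which appears on the opposite strand as CGTCA. No window of a named member held the full element, against 2.54% of all protein-coding genes. Among unnamed members, Creb5 and Prkar1a held it. At 2.54%, a set of 23 genes can hold no full element without standing apart from the rest. At least 1 core was present in 9 of 23 named members (39.1%), 13 of 38 unnamed members (34.2%) and 26.2% of all protein-coding genes. Counted by window, since members have more starts, these were 19.6%, 25% and 23.6%. The 9 were Adcy7, Creb3l2, Pde1a, Pde4a, Pde4b, Pde6h, Pde8b, Prkar1b and Prkar2a. In the Pde4b window printed above the core begins 34 bases before the start. A match of letters does not show that a factor binds there.

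The rest of the pathway was read from 9 lists of 91 other genes. The higher list had 18 of these (19.8%) and the lower list 2 (2.2%), beside 12.1% and 1.51% of all protein-coding genes. Their median gene length was 33.4 kb, against 17.2 kb for all. Most of the lists are too small for their counts to be set apart from these shares. Upstream of the cyclases, 3 of 22 ligands and receptors that raise cyclic AMP were in the higher list. They were Adcyap1r1, the receptor of the peptide PACAP, the adenosine receptor gene Adora2b, and Glp2r, the receptor gene of glucagon-like peptide 2. The incretin receptor genes Glp1r and Gipr and the glucagon receptor gene Gcgr were in neither list. Of 15 receptors that lower cyclic AMP, 4 were in the higher list. These included Adra2a, the adrenergic receptor through which adrenaline restrains insulin secretion, and Sstr2, a somatostatin receptor gene, of 3.72 kb and 6.7 kb. The others were Galr1 and Adora1.

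**Figure D4:**
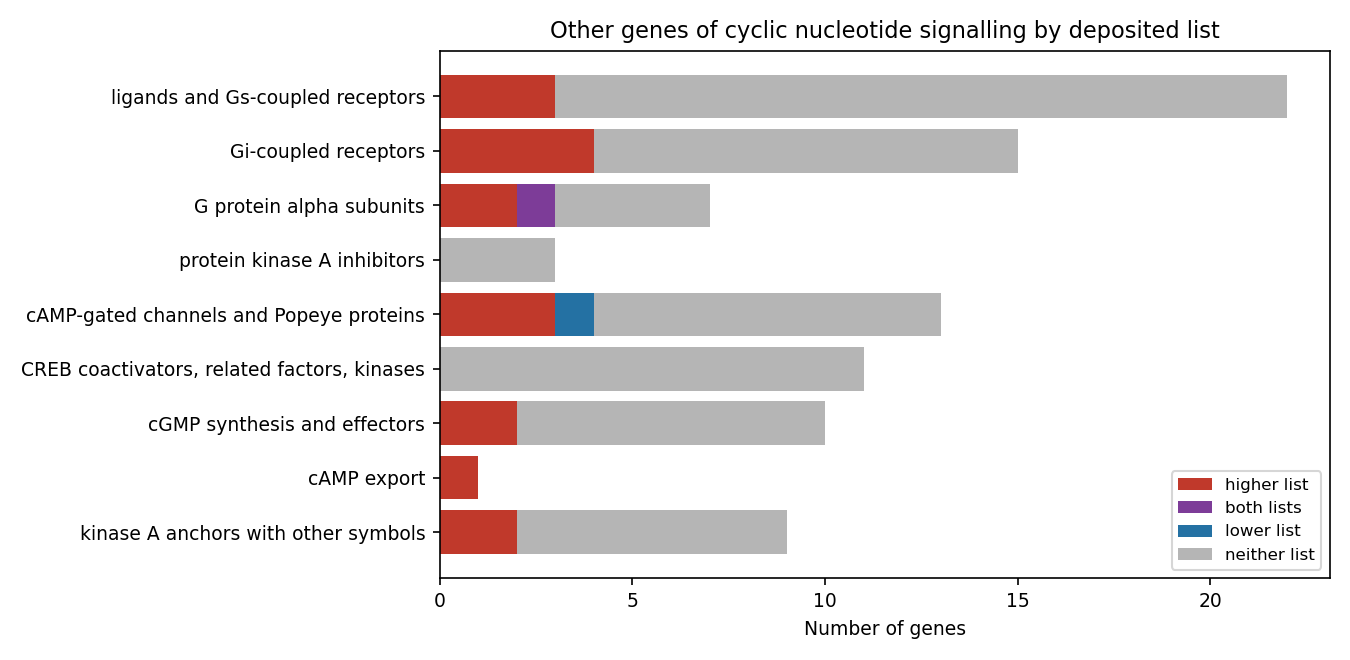
Number of genes in each of 9 lists of other cyclic nucleotide signalling genes, by deposited list. Named genes are a minority in every list except cAMP export, which holds 1 gene, and none is named among the 3 kinase inhibitors or the 11 CREB coactivators, related factors and kinases.

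Of 7 G protein alpha subunit genes, Gnas, Gnao1 and Gnaz were in the higher list. Gnas, which encodes the subunit that activates adenylyl cyclase and is imprinted, was in the lower list as well, like Adcy2. Genes outside the pathway were also in both lists, among them Aebp2, a neighbour of Pde3a. Of 13 genes of cyclic nucleotide-gated channels and Popeye proteins, the higher list included Popdc2 and Popdc3, and the lower list Cnga3. Popeye proteins bind cyclic AMP. The exporter gene Abcc4 was in the higher list. So were Ezr and Myrip, of 9 anchors with other symbols. Of 10 genes of cyclic GMP synthesis and response, Gucy2f and Prkg1 were in the higher list. None of the 3 inhibitors of protein kinase A was named in either direction. The same held for the 11 CREB coactivators, related factors and kinases that act on them, among them Crebbp, Ep300 and Sik2. At 12.1% of all protein-coding genes, and 13.5% of those of 20 to 100 kb, lists of this size can hold no named gene without standing apart from the rest.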

How the data were processed

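Bisulfite libraries were made from sorted cells by Tn5 tagmentation, bisulfite conversion and PCR, per the labels' protocols. Trim Galore and the builds mm10 and GRCm38 are named in the submitters' processing notes. The aligner, the region caller, its thresholds and the nearest-gene rule were not given in the sources used here. A single table of gene names, deposited by the authors, has 9 columns and no measured unit. Per the file headers, column 1 is the lower list. The other 8 were read as the higher list, since each blank-headed column carries on the alphabet of the one before.

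Ignoring case, names were matched to RefSeq genes of GRCm38.p6 by symbol, gene ID or unique older symbol: 407 of 429 and 3147 of 3230 matched. The matching was tested on simulated names. Coordinates are those of annotated genes, 1-based. Python 3.11.15 and pandas 2.3.3 were used. The share of members named was set beside that of 21887 protein-coding genes placed on a nuclear chromosome. With 1 library per genotype there was no test. Members, roles and pathway lists were chosen with earlier results of these data known. Every member in a list is named, as are those of the pathway lists except for some genes that are not reported here. Matching, gene class, cyclic AMP role, chromosomes, genes in both lists, gene length, territory (a gene plus its side of the gap to each neighbouring protein-coding gene), motif length and window were varied.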

Additional observations from a re-analysis of the deposited data

How the results depend on the processing

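Of 22 alternative values, 18 stayed close to those reported. Several of these could not move. Every named member was protein-coding, autosomal and matched by its current symbol, so keeping only such genes left the counts as they were. A fall from 3 to 2 members was also taken as close. The higher list kept between 19 and 22 members and the lower list 2 or 3. The 19 and a 2 came from leaving out genes with a matching symbol but no part in making, breaking down, binding or answering to cyclic AMP, and the other 2 from leaving out Adcy2, which was in both lists. For the ratio of the members' share to that of all protein-coding genes, 3 values left the exact 95% binomial interval of the reported one. That interval served only as a yardstick of closeness. Members are not replicates and were chosen with the outcome known, so it is neither a test nor an estimate of error. For the lower list it is so wide that few values could leave it. In the higher list the ratio moved from 2.46 (1.63 to 3.43) to 1.26 among genes of at least 100 kb. In the lower list it moved from 2.68 (0.558 to 7.53) to 0 under 100 kb, both by gene length and by territory, since its members are all longer. With territory in place of length, the higher ratio was 1.71 at 100 kb or more and 1.92 below. Searching for the core of the response element in place of the full one moved the count from 0 to 9 named members, as the shorter motif is more common. No paired analysis was possible because there is 1 library for each genotype, and no replicate could be left out. Coverage is unknown, so the absence of a gene from both lists does not show that its methylation was alike.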
